A study of Homo sapiens with 6 samples.

Results

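The 42 genes described here act in mitosis and in the mitotic spindle, and were chosen by name from the 58735 genes of the expression table. They were the cyclins and their activating phosphatases, mitotic kinases, checkpoint and kinetochore proteins, spindle motors, cytokinesis proteins, TOP2A, MKI67 and FOXM1. These genes, and the lists set beside them below, were chosen with earlier results of these data known. Their shares beside all tested genes are therefore descriptions. RNA was sequenced from Hep-G2, an established liver cancer line, in 2 groups of 3 libraries. The sh-NC group carried a negative control hairpin and was labelled WT in genotype, and the sh-CLGN group carried a hairpin against CLGN and was labelled CLGN knock down. Calmegin, the product of CLGN, is a chaperone that resides in the endoplasmic reticulum, and the comparison asks which transcripts differ when it is depleted. Both groups received their hairpin by lentivirus and were selected in puromycin, and all 6 libraries were labelled with the batch 0DAY. Each group had 1 hairpin, so the loss of CLGN, other effects of that hairpin and the selection of a transduced culture cannot be told apart. The labels do not say that libraries of a group came from separate cultures, so p-values measure only the spread between these libraries, which may be technical.

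Entry into mitosis is driven by CDK1 bound to cyclin B, which the CDC25 phosphatases activate, and the Aurora and Polo-like kinases then act at centrosomes, kinetochores and the midzone. The spindle checkpoint holds back CDC20 until every kinetochore is attached. Separase then cuts cohesin, and motors and midzone proteins separate the cells. Many of these genes are transcribed together late in the cell cycle from promoters that hold CCAAT boxes and a CHR element, through the DREAM and MMB complexes and FOXM1.

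Expression was given in FPKM, fragments scaled to gene length and to the size of the library, which allows levels of different genes to be set side by side. The test covered the 13074 genes that reached 1 FPKM in 3 or more libraries, 41 of the 42 mitosis genes among them. Differences are given as log2 fold changes of log2(FPKM + 1), sh-CLGN minus sh-NC, from limma with Benjamini-Hochberg adjustment over all tested genes, and a call required an adjusted p no higher than 0.05. On this scale the change of a gene with a low value is understated. Between 14955816 and 16244639 reads per library lay behind the values. CLGN itself was at 24.1, 21.0 and 26.1 FPKM in sh-NC and at 9.48, 8.88 and 8.6 FPKM in sh-CLGN, 37.8% of the control mean, with a log2 fold change of -1.31 (SE 0.081, adjusted p = 8.35e-06). All 9 liver cell markers were detected, with summed levels of 7069 to 7306 FPKM for sh-NC, beside 7171 to 7635 FPKM for sh-CLGN. The sums hide changes both ways, with 5 of these markers called lower and 3 higher, beside 39.0% and 26.7% of all tested genes. TF (-1.62) and ALB (-0.90) fell most, and AFP (0.50), TTR (0.58) and FGB (0.72) were the 3 called higher. The sum of 9 fibroblast markers lay at 7.17 to 8.51 FPKM for sh-NC, beside 48.5 to 49.9 FPKM for sh-CLGN. Most of this sum was COL1A2, at 4.20 ± 0.561 FPKM in the control and 38.7 ± 0.614 FPKM with the CLGN hairpin. Of the 9, 6 reached 1 FPKM and 5 were tested and called higher, but COL1A1, COL3A1 and LUM passed the filter only through the sh-CLGN libraries, where they were high, so their calls are no support. DCN and THY1 had at most 1 read in a library, and FAP was at 0 in all 6 libraries. Endothelial markers summed to 3.36 to 3.67 FPKM for sh-NC, beside 2.38 to 2.65 FPKM for sh-CLGN, with KDR at 0, and blood cell markers summed to at most 1.56 FPKM, with HBB at 0. The part of the fibroblast markers in the differences below was not tested.

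Of the 41 mitosis genes tested, 24 (58.5%) were called lower in sh-CLGN and 9 (22.0%) higher, and 8 were not called. CENPE, among the 9, passed the filter only through the sh-CLGN libraries, where it was high. It lends no support to this or later counts of higher genes. The background was wide: of all tested genes, 39.0% were called lower and 26.7% higher. The median log2 fold change of the mitosis genes was -0.30, beside -0.08 over all tested genes, and their range was -1.08 to 0.85. With a log2 fold change of at least 1 required as well, ESPL1 alone was called, where 3.19% of all tested genes were lower and 3.09% higher by that rule. The log2(FPKM + 1) scale understates changes at low values. As mean FPKM, CDC25C was at 49.6% of control and CENPE at 2.34 times control, both beyond that fold. The 3 libraries of each group did not overlap and lay lower in sh-CLGN for 25 of the 41 genes (61.0%), beside 41.5% of all tested genes, and lay higher for 9 (22.0%), beside 28.7%. Summed over the 42 genes, the level was 1236, 1230 and 1237 FPKM in sh-NC and 949, 939 and 945 FPKM in sh-CLGN. A share of all reads of the library uses neither the scaling in the deposited values nor the division by gene length. On that measure the genes took 0.449%, 0.452% and 0.468% for sh-NC, beside 0.427%, 0.426% and 0.429% for sh-CLGN. The groups did not overlap on either scale, and the relative gap was smaller on the second one, which also gives long genes more weight. The parts of scaling and of length in this were not separated. In bulk RNA, fewer cells in mitosis and less of these transcripts per cell cannot be told apart.

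**Figure D1:**
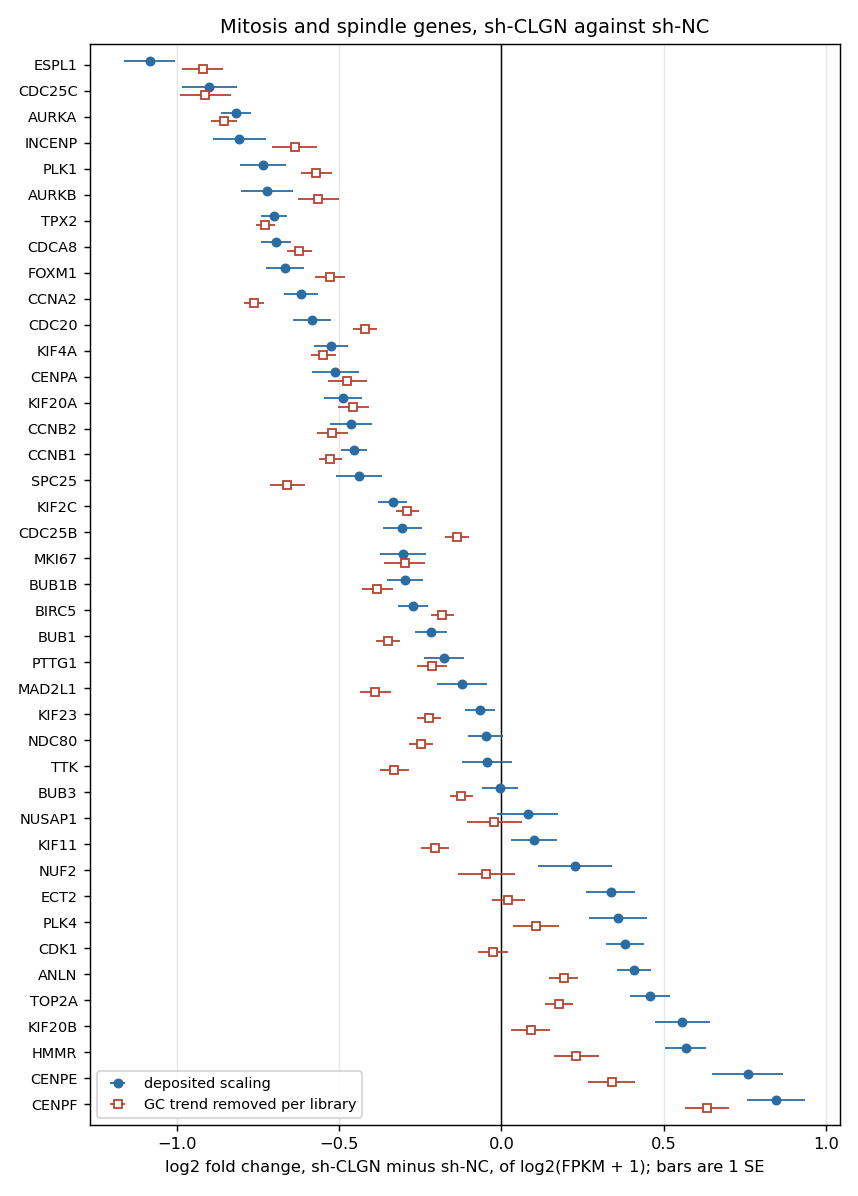
Log2 fold change of log2(FPKM + 1), sh-CLGN minus sh-NC, for the 41 tested mitosis genes, with bars of 1 SE; circles are the deposited values and open squares the values after the GC trend was removed in each library. The deposited values run from -1.08 for ESPL1 to 0.85 for CENPF, and the squares of the genes at the upper end lie nearer to or below 0.

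The balance of lower and higher calls depended on how the libraries were scaled. After quantile normalization, which gives every library the same distribution of values, 17 of the 41 genes were called lower and 13 higher, with a median of -0.02, beside 32.5% and 30.2% of all tested genes. Rescaling to TPM gave 20 lower and 11 higher, and scaling by read totals gave 18 and 12. These 3 scalings moved the median of all tested genes by 0.06, 0.11 and 0.16 on the log2 scale. Over all tested genes the split of 5102 lower and 3496 higher became 4251 and 3954 with quantile normalization, 3923 and 4285 with TPM, and 3421 and 4956 with read totals. Counts of lower and higher genes below are those of the deposited scaling.

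Base composition moved with the differences as well. The log2 fold change fell with the GC content of a gene's annotated transcripts, with a Spearman correlation of -0.81 (Pearson -0.78) across the 41 mitosis genes and of -0.33 across 13068 tested genes, in both cases across genes measured in the same 6 libraries. Of the 11 mitosis genes under 40% GC, 7 were called higher and 0 lower, where 49.8% and 13.4% of all tested genes in that class were. Of the 11 between 40% and 45% GC, 5 were lower and 2 higher, where 26.5% and 35.5% of all tested genes in that class were. All 10 genes between 45% and 50% GC and all 9 above 50% GC were called lower, where 39.3% and 51.5% of all tested genes in those classes were. When the trend of level on GC content was removed from each library, 30 of the 41 were called lower and 5 higher, beside 40.9% and 26.8% of all tested genes, and the median was -0.33. All 24 genes called lower were called lower after this correction too. Of the 9 called higher, ANLN, TOP2A, HMMR, CENPE and CENPF stayed called, while ECT2, PLK4, CDK1 and KIF20B did not. The call of CENPE is no support here either, given how it passed the filter. MAD2L1, KIF23, NDC80, TTK, BUB3 and KIF11, which were not called before, were called lower after it. The correlation with GC content across the 41 genes was -0.61 after the correction, and -0.00 across all tested genes. The trend also differed between libraries of 1 group, since the correlation of a library's deviation from its group mean with GC content was 0.37, 0.47 and -0.65 for the sh-NC libraries, beside -0.14, -0.22 and 0.31 for the sh-CLGN libraries.

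**Figure D2:**
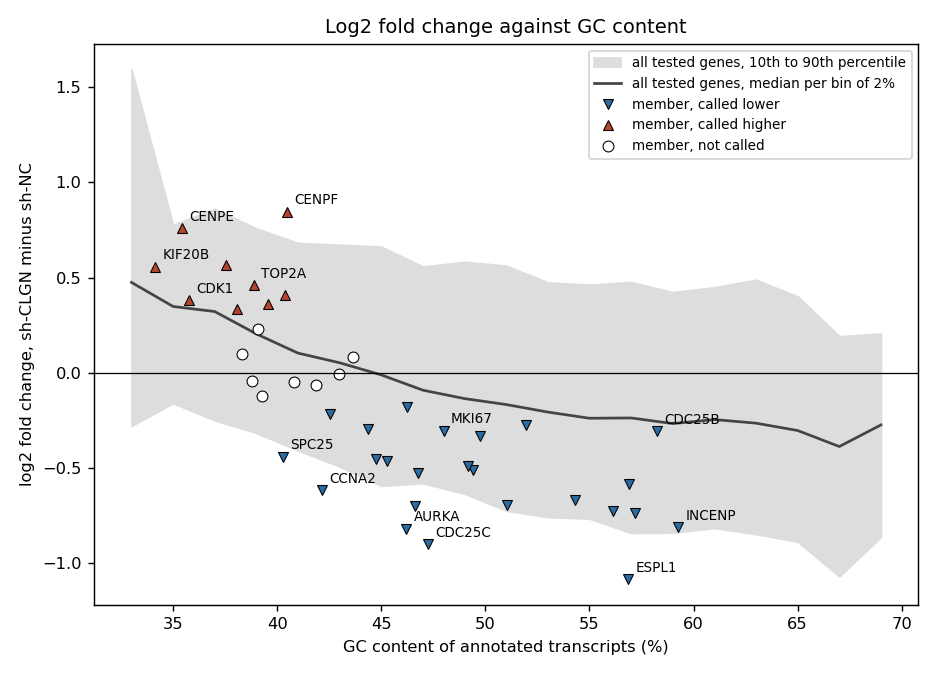
Log2 fold change, sh-CLGN minus sh-NC, against the GC content of the annotated transcripts in percent; triangles and circles are the 41 tested mitosis genes by call, and the line and band are the median and the 10th to 90th percentile of all tested genes in bins of 2% GC. The mitosis genes called higher lie at the left, the genes called lower extend to the right end, and the spread of the mitosis genes is steeper than the median line.

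The CHR element and the CCAAT box were common in the promoters of these genes, whichever way their level differed. RefSeq promoters on GRCh38.p14, 250 bases before to 50 bases from the transcript start, were matched for 36 of the 42 genes by symbol, with 48 promoters between them, and AURKA, BIRC5, BUB3, FOXM1, TPX2 and TTK had no entry. The CHR was searched as TTTGAA and the CCAAT box as CCAAT, on both strands, and matches of the 2 motifs can share at most 1 base. At least 1 promoter of the gene held TTTGAA for 27 of the 36 genes (75%), CCAAT for 30 (83.3%) and both for 22 (61.1%), where 18.2%, 39.7% and 7.26% of 27305 genes did. Counted by promoter, 62.5%, 72.9% and 50% of the 48 held them, and 15.2%, 34.6% and 5.90% of all 35116 promoters. Both motifs were found in 11 of 20 genes called lower, 6 of 9 called higher and 4 of 6 not called, and in PRC1, which was not tested. Taken singly, TTTGAA was in 60%, 88.9% and 100% of the genes called lower, higher and not called. CCAAT was in 90%, 77.8% and 66.7% of them, and these differences were not tested. A match of letters is a description and not a shown binding site. Shown are the 200 bases from 150 before to 50 from the start, for the 3 strongest decreases among genes that hold both motifs. CENPF, which had the largest rise on the log2(FPKM + 1) scale, is shown as well. The motifs are in capitals (TTTGAA for the CHR, CCAAT or its reverse complement ATTGG for the CCAAT box).
ESPL1 (chr12:53268149-53268348, plus strand): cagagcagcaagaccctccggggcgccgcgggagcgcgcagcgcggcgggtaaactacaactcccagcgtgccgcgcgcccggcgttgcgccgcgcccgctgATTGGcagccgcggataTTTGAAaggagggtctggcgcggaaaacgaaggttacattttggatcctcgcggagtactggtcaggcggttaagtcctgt
CDC25C, 1 of several RefSeq starts (chr5:138331828-138332027, minus strand): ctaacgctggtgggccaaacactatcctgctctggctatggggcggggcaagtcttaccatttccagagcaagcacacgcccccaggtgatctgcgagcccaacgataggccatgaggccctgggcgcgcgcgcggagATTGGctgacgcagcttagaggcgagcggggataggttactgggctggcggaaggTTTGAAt
INCENP (chr11:62123861-62124060, plus strand): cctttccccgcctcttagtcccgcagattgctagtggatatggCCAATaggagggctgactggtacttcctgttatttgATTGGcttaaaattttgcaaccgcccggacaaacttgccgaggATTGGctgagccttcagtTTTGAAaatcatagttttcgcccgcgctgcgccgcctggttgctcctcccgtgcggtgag
CENPF (chr1:214603045-214603244, plus strand): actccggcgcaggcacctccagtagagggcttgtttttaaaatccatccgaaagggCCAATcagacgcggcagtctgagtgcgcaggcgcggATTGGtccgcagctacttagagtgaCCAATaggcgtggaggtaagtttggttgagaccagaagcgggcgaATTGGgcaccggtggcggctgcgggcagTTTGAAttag
Position 1 is the first transcribed base. The CHR of ESPL1 began at -31 with a CCAAT box at -48, and that of INCENP at -10 with boxes at -107, -71 and -28. In the CDC25C promoter shown the CHR began at 44, after that start, and the CCAAT box at -12. Counted from another RefSeq start of CDC25C, a CHR lay at -30 and a CCAAT box at -85, with the same spacing and strands. These are likely the same bases, so whether this CHR lies before or after the start depends on the start chosen. CENPF, which differed in the opposite direction, held a CHR at 41 and boxes at -94, -58, -33 and 13.

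ESPL1 (ENSG00000135476, chr12:53268299-53293643 on GRCh38) encodes separase, the protease that opens cohesin at anaphase, and had the largest decrease of the 41 genes. It was at 14.1, 15.5 and 13.4 FPKM in sh-NC and at 5.64, 6.24 and 6.78 FPKM in sh-CLGN. The means were 14.3 ± 1.07 and 6.22 ± 0.568 FPKM (SD, n = 3), a log2 fold change of -1.08 (SE 0.078, adjusted p = 1.6e-05, limma), and -0.92 after GC correction. The highest sh-CLGN library was thus below the lowest sh-NC library by a wide margin. The other members of the anaphase group fell less. CDC20, the activator of the anaphase-promoting complex, went from 120 ± 8.17 to 79.7 ± 1.96 FPKM (log2 fold change -0.58, adjusted p = 7.78e-05). PTTG1, or securin, the inhibitor of separase, was at 56.0 ± 3.40 and 49.4 ± 2.57 FPKM. Its log2 fold change of -0.18 (adjusted p = 0.0332) lost its call without sh-NC replicate 2 or 3 or sh-CLGN replicate 2 or 3, with adjusted p of 0.0736 to 0.12, and had the opposite sign after quantile normalization (0.10) and with read totals (0.01).

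Among the genes that start mitosis, CDC25C had the strongest decrease. CDC25C (ENSG00000158402, chr5:138285265-138338355) encodes a phosphatase that activates CDK1. It lay at 10.9, 12.2 and 10.8 FPKM in sh-NC and 5.90, 5.99 and 4.88 FPKM in sh-CLGN. The log2 fold change was -0.90 (SE 0.084, adjusted p = 5.34e-05), and every sh-CLGN library lay below every sh-NC library. Its relative CDC25B fell less, from 39.8 ± 2.99 to 32.0 ± 0.421 FPKM (-0.31, adjusted p = 0.00269). CDC25B was not called with read totals (-0.12, adjusted p = 0.114) or quantile normalization (-0.02). All 3 mitotic cyclins tested were called lower, where 39.0% of all tested genes were. Cyclin A2 (CCNA2) fell from 49.8 ± 2.76 to 32.1 ± 0.570 FPKM (-0.62), cyclin B1 (CCNB1) from 83.4 ± 0.719 to 60.6 ± 0.746 FPKM (-0.45) and cyclin B2 (CCNB2) from 32.9 ± 2.01 to 23.6 ± 1.48 FPKM (-0.46), with adjusted p of 3.52e-05, 4.35e-05 and 0.000438. CDK1, the kinase that these cyclins activate, lay on the other side. It was at 18.4, 16.4 and 17.7 FPKM in sh-NC and at 23.4, 23.8 and 21.9 FPKM in sh-CLGN (0.38, SE 0.059, adjusted p = 0.000754). CDK1 has a GC content of 35.8%, and after GC correction its difference was -0.03 (adjusted p = 0.632).

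Both tested Aurora kinases and PLK1 were lower. AURKA (ENSG00000087586, chr20:56369389-56392337), the centrosomal Aurora kinase, lay at 52.3, 49.5 and 50.7 FPKM in sh-NC and 28.9, 27.8 and 28.5 FPKM in sh-CLGN. Its log2 fold change was -0.82 (SE 0.045, adjusted p = 5.4e-06), and the spread within each group was small beside the gap. TPX2 (ENSG00000088325, chr20:31739271-31801805), which activates AURKA on the spindle, was the most abundant of the 42 genes. It was at 154, 155 and 158 FPKM in sh-NC and 96.3, 95.6 and 94.2 FPKM in sh-CLGN (-0.70, SE 0.041, adjusted p = 6.78e-06). PLK1 (ENSG00000166851, chr16:23677656-23690367), a kinase of centrosomes, kinetochores and cytokinesis, lay at 34.1, 31.8 and 28.8 FPKM in sh-NC and 17.6, 18.4 and 19.5 FPKM in sh-CLGN (-0.74, SE 0.070, adjusted p = 6.01e-05). Exons of other genes cover 12.5% of its exonic bases, mostly on the opposite strand. PLK4, the kinase that starts centriole duplication, differed from PLK1 in direction. It was at 2.72, 2.84 and 3.46 FPKM in sh-NC and 4.29, 3.78 and 4.31 FPKM in sh-CLGN (0.36, adjusted p = 0.00788), and at 0.11 after GC correction (adjusted p = 0.211).

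All 4 genes of the chromosomal passenger complex were called lower, where 39.0% of all tested genes were. This complex joins Aurora kinase B to the scaffold INCENP and the targeting proteins borealin and survivin, and corrects attachments of chromosomes to the spindle. INCENP (ENSG00000149503, chr11:62123973-62153163) lay at 25.5, 26.2 and 24.4 FPKM in sh-NC and 12.5, 14.0 and 15.8 FPKM in sh-CLGN (-0.81, SE 0.081, adjusted p = 7.77e-05). AURKB (ENSG00000178999, chr17:8204733-8210600) lay at 74.9, 67.4 and 59.7 FPKM in sh-NC and 41.6, 39.96 and 39.1 FPKM in sh-CLGN (-0.72, SE 0.080, adjusted p = 0.000125). In both genes the libraries of the groups were apart, although the sh-NC libraries of AURKB spread more widely than its sh-CLGN libraries. Borealin (CDCA8, ENSG00000134690, chr1:37692418-37709719) lay at 49.0, 47.1 and 46.2 FPKM in sh-NC and 28.0, 29.3 and 29.5 FPKM in sh-CLGN (-0.69, SE 0.047, adjusted p = 1.22e-05). Survivin (BIRC5) fell least, from 26.1 ± 0.757 to 21.5 ± 0.587 FPKM (-0.27, adjusted p = 0.00137). It was not called with TPM (-0.16, adjusted p = 0.0504), read totals (-0.09, adjusted p = 0.157) or quantile normalization (-0.02). The first 3 of these genes stayed lower with GC correction (-0.64, -0.56 and -0.62) and with quantile normalization (-0.58, -0.44 and -0.43).

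Of the 5 spindle checkpoint genes, 2 (40%) were called lower, close to the 39.0% of all tested genes. All 5 were lower after GC correction, where 40.9% of all tested genes were. With quantile normalization 0 were lower and 1 higher, beside 32.5% and 30.2% of all tested genes. BUB1B, or BUBR1, which holds back CDC20, was at 19.2 ± 0.734 and 15.4 ± 0.7998 FPKM (-0.30, adjusted p = 0.00209), and 10.2% of its exonic bases are shared with the readthrough gene BUB1B-PAK6. The kinase BUB1 was at 17.2 ± 0.425 and 14.7 ± 0.381 FPKM (-0.22, adjusted p = 0.00463). Both were called lower, also after GC correction (-0.38 and -0.35). Neither was called with read totals (-0.11 and -0.03) or quantile normalization (-0.08 and -0.01), and BUB1 was not called with TPM (-0.10, adjusted p = 0.167). MAD2L1 (-0.12, adjusted p = 0.195), the kinase TTK (-0.04, adjusted p = 0.631) and BUB3 (-0.00, adjusted p = 0.945) were not called, and their libraries overlapped between the groups. After GC correction these 3 differences were -0.39, -0.33 and -0.12, all called lower, and with quantile normalization 0.03, 0.05 and 0.21, of which that of BUB3 was called higher (adjusted p = 0.0141). With read totals BUB3 was called higher too (0.18, adjusted p = 0.0277). BUB3, for example, was at 17.1, 16.2 and 18.1 FPKM in sh-NC and 17.5, 17.0 and 16.6 FPKM in sh-CLGN.

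Of the 6 kinetochore and centromere genes, 2 (33.3%) were called higher, among them the 2 largest rises of the 41 genes, and 2 (33.3%) lower. Of all tested genes, 26.7% were called higher and 39.0% lower, and with 6 genes these shares are not read as a difference. CENPF (ENSG00000117724, chr1:214603195-214664588), a large kinetochore and nuclear matrix protein, had the largest rise of the 41 genes on the log2(FPKM + 1) scale. It was at 6.32, 6.49 and 8.10 FPKM in sh-NC and 13.4, 12.5 and 14.0 FPKM in sh-CLGN, with means of 6.97 ± 0.981 and 13.3 ± 0.749 FPKM (SD, n = 3). The log2 fold change was 0.85 (SE 0.091, adjusted p = 0.000108) and 0.63 after GC correction. CENPE (ENSG00000138778, chr4:103105806-103198409), the kinesin of the kinetochore, was at 1.14, 0.834 and 1.24 FPKM in sh-NC and 2.71, 2.66 and 2.13 FPKM in sh-CLGN. Its log2 fold change of 0.76 (SE 0.110, adjusted p = 0.000524) came to 0.34 after GC correction, still called. As a ratio of mean FPKM, CENPE rose more than CENPF, 2.34 against 1.90. Both genes were thus higher in each sh-CLGN library than in any sh-NC library, CENPE at a low level of 115 to 434 reads per library. CENPE reached 1 FPKM in 2 of the 3 sh-NC libraries. It thus passed the filter only through the sh-CLGN libraries, where it was high, so its call is no support. In the other direction, CENPA, the centromeric histone, fell from 11.3 ± 1.02 to 7.63 ± 0.312 FPKM (-0.51, adjusted p = 0.000432). The NDC80 complex, which binds microtubules at the kinetochore, had 3 subunits among the 41 genes, of which 1 was called. SPC25 fell from 16.4 ± 0.595 to 11.8 ± 1.08 FPKM (-0.44, adjusted p = 0.000902), NDC80 had a difference of -0.05 (adjusted p = 0.438) and NUF2 of 0.23 (adjusted p = 0.115). NDC80 was called lower after GC correction (-0.25, adjusted p = 0.000699) and higher with quantile normalization (0.17, adjusted p = 0.0306). NUF2 was called higher with TPM and with read totals (0.385 in both, adjusted p = 0.0318 and 0.0199). No test of the difference between these subunits was made.

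**Figure D3:**
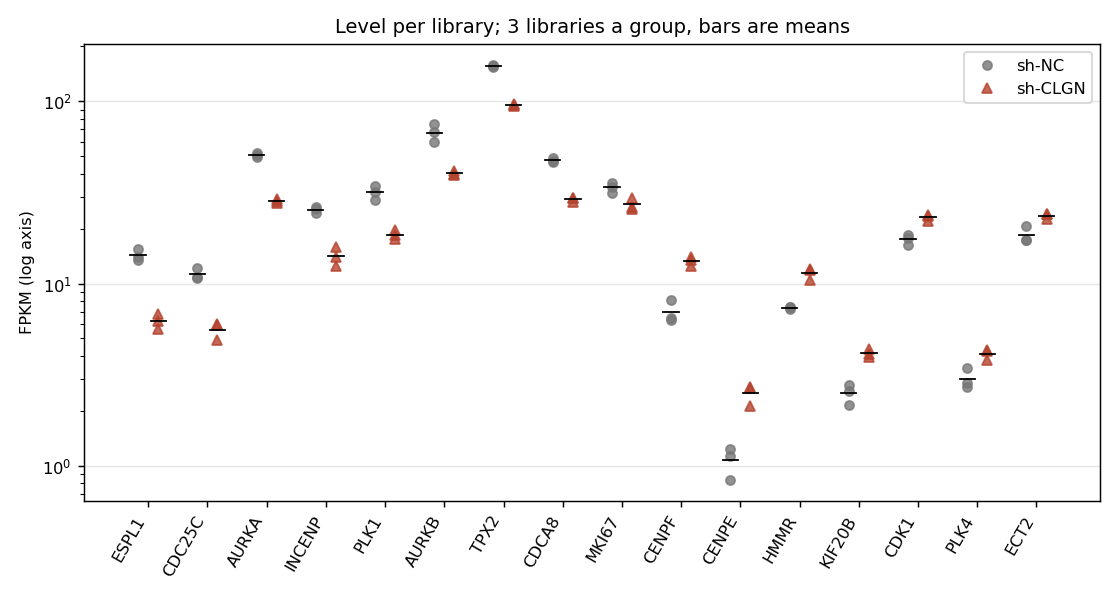
FPKM on a log axis of 16 mitosis genes in each library; grey circles are the 3 sh-NC libraries, red triangles the 3 sh-CLGN libraries and bars the means. From ESPL1 to MKI67 each sh-CLGN library lies below each sh-NC library, and from CENPF to ECT2 each lies above.

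Spindle motors and assembly factors split in the same way. Besides TPX2, the chromokinesin KIF4A fell from 26.7 ± 1.25 to 18.2 ± 0.460 FPKM (-0.52, adjusted p = 7.25e-05) and the microtubule depolymerase KIF2C from 33.9 ± 0.352 to 26.6 ± 0.748 FPKM (-0.33, adjusted p = 0.000331). KIF2C was not called with quantile normalization (-0.07). HMMR (ENSG00000072571, chr5:163460203-163491945), a spindle assembly and hyaluronan-binding protein, was at 7.28, 7.45 and 7.41 FPKM in sh-NC and 12.0, 10.5 and 11.8 FPKM in sh-CLGN (0.57, SE 0.062, adjusted p = 0.000119). KIF20B (ENSG00000138182, chr10:89701610-89774939), a kinesin of cytokinesis, was at 2.57, 2.15 and 2.79 FPKM in sh-NC and 3.95, 4.10 and 4.38 FPKM in sh-CLGN (0.56, SE 0.085, adjusted p = 0.000687). HMMR stayed called after GC correction at 0.23, and KIF20B, with the lowest GC content of the 41 genes at 34.1%, did not (0.09, adjusted p = 0.219). The bipolar kinesin KIF11 (0.10, adjusted p = 0.245) and the microtubule-bundling protein NUSAP1 (0.08, adjusted p = 0.474) were not called. KIF11 was called higher with TPM, read totals and quantile normalization (0.23, 0.28 and 0.27) and lower after GC correction (-0.21, adjusted p = 0.00385). Exons of AC087721.2 on the same strand cover 62.2% of the exonic bases of NUSAP1, so its value is uncertain.

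Of the cytokinesis genes, KIF20A, which carries the passenger complex to the midzone, fell from 23.6 ± 0.703 to 16.6 ± 1.03 FPKM (-0.49, adjusted p = 0.000172). KIF23, the motor of centralspindlin, had a difference of -0.07 (adjusted p = 0.25), was called lower after GC correction (-0.22) and was called higher with quantile normalization (0.14, adjusted p = 0.0392). ECT2, the exchange factor that activates RhoA at the division plane, was at 17.3, 17.4 and 20.8 FPKM in sh-NC and 24.2, 22.5 and 24.1 FPKM in sh-CLGN. Its difference of 0.34 (adjusted p = 0.00499) came to 0.02 after GC correction (adjusted p = 0.737). Anillin (ANLN), the scaffold of the contractile ring, rose from 18.0 ± 0.668 to 24.3 ± 0.982 FPKM (0.41, adjusted p = 0.000281), and by 0.19 after GC correction. PRC1, the bundler of the midzone, was below the filter at 0.493, 0.583 and 0.550 FPKM in sh-NC and 0.448, 0.353 and 0.359 FPKM in sh-CLGN. Of its exonic bases, 57.6% are shared with AC068831.7 on the same strand, which was itself at 0.722 to 0.805 FPKM in sh-NC and 0.957 to 1.19 FPKM in sh-CLGN, so reads of these 2 genes may not be separable. Without the filter, the difference of PRC1 was -0.15 (adjusted p = 0.212).

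MKI67, the proliferation antigen that coats mitotic chromosomes, was modestly lower. It lay at 31.5, 34.0 and 35.7 FPKM in sh-NC and at 25.6, 26.3 and 29.6 FPKM in sh-CLGN, a log2 fold change of -0.30 (SE 0.070, adjusted p = 0.00562). The gap between the highest sh-CLGN and the lowest sh-NC library was small, and MKI67 was not called with TPM, read totals or quantile normalization (-0.18, -0.11 and -0.04). TOP2A, the topoisomerase that untangles sister chromosomes, differed in the opposite direction, from 36.7 ± 2.77 to 50.7 ± 1.76 FPKM (0.46, adjusted p = 0.000375), and rose by 0.18 after GC correction (adjusted p = 0.00779). These 2 genes, both used as markers of cycling cells, had opposite signs in the same libraries. FOXM1, the transcription factor of the G2/M genes, fell from 38.6 ± 1.13 to 24.0 ± 1.65 FPKM (-0.67, SE 0.059, adjusted p = 4.14e-05), with 15.9% of its exonic bases covered by ITFG2 on the opposite strand.

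The wider cell cycle machinery was read from 8 lists of 182 genes that contain none of the 42, against the 39.0% of all tested genes called lower and 26.7% called higher (32.5% and 30.2% with quantile normalization). Of 67 other mitosis genes tested, 37 (55.2%) were called lower and 10 (14.9%) higher, with a median of -0.27. The balance was narrower with quantile normalization, at 25 lower and 18 higher with a median of -0.07, and wider after GC correction, at 50 and 4. Among them UBE2S, the ubiquitin enzyme of the anaphase-promoting complex, and SPC24, the partner of SPC25, fell by 1.03 and 1.01 on the log2 scale (adjusted p = 6.01e-05 and 6.31e-05). ASPM, a protein of spindle poles, rose from 5.36 ± 0.940 to 12.1 ± 0.408 FPKM (1.06, adjusted p = 5.95e-05), and CENPU, of the inner kinetochore, by 0.55 (adjusted p = 7e-05). Of 43 DNA replication and G1/S genes, 32 (74.4%) were lower and 2 (4.65%) higher, with a median of -0.43. Quantile normalization gave 24 and 4, and GC correction 35 and 2. E2F2, a transcription factor of S phase entry, fell from 7.75 ± 0.403 to 1.96 ± 0.296 FPKM (-1.57, adjusted p = 5.58e-06) and cyclin E1 (CCNE1) from 10.8 ± 0.806 to 4.41 ± 0.447 FPKM (-1.13, adjusted p = 1.48e-05). RFC1, the large clamp loader subunit, rose by 0.57 (adjusted p = 0.0002) and the helicase subunit MCM6 by 0.24 (adjusted p = 0.0116).

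The DREAM and MMB complex genes were lower in 7 of 11 (63.6%) and higher in 2 (18.2%), with a median of -0.42, and the counts were 6 and 2 with quantile normalization and 8 and 1 after GC correction. MYBL2, the activating subunit of MMB, fell from 119 ± 7.71 to 73.3 ± 3.20 FPKM (-0.69, adjusted p = 4.09e-05) and E2F5, a repressor E2F, by 0.66 (adjusted p = 8.21e-05). MYBL1 and LIN9 rose by 0.59 and 0.25 (adjusted p = 0.000957 and 0.015). MYBL1, at 0.549 ± 0.0955 FPKM in sh-NC and 1.33 ± 0.0855 FPKM in sh-CLGN, passed the filter only through the group where it was high, so its call is no support for the list. CDK inhibitors were lower in 5 of 8 (62.5%) and higher in 1 (12.5%), and in 3 and 2 with quantile normalization. CDKN1A, or p21, a p53 target that restrains CDKs, was at 16.1, 15.5 and 13.0 FPKM in sh-NC and at 6.36, 5.94 and 5.91 FPKM in sh-CLGN (-1.16, SE 0.081, adjusted p = 1.35e-05). This decrease was close in size to that of ESPL1, and the difference between them was not tested. CDKN2D fell by 0.56 (adjusted p = 0.000315), and CDKN2B, or p15, rose from 12.8 ± 0.150 to 20.2 ± 1.30 FPKM (0.62, adjusted p = 4.92e-05).

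In the chromosome and centrosome complexes the balance of calls changed with the processing. Of all tested genes, 39.0% were called lower and 26.7% higher. The lists here hold 8 to 15 tested genes, so 1 gene moves a share by much. Their shares are not read as differences from those of all tested genes. Of 8 condensin subunits, NCAPH2 and NCAPH fell by 0.75 and 0.55 (adjusted p = 6.44e-05 and 3.43e-05), and the ATPase subunits SMC2 and SMC4 rose by 0.44 and 0.26 (adjusted p = 0.000637 and 0.0256), with 4 lower (50%) and 2 higher (25%) in all. After GC correction 5 were lower and 0 higher, and with quantile normalization 2 and 4. Cohesin and its loaders were lower in 3 of 12 (25%) and higher in 6 (50%), but in 5 and 3 after GC correction, with medians of 0.22 and -0.04. SMC1A fell by 0.69 and the loader subunit MAU2 by 0.63, while the other loader subunit NIPBL and the cohesin subunit STAG1 rose by 0.73 and 0.53 (adjusted p at most 0.00673). The subunits of the anaphase-promoting complex were lower in 5 of 15 (33.3%) and higher in 3 (20%), and in 2 and 6 with quantile normalization. The named genes were FZR1, its activator in G1, at -0.75, ANAPC15 at -0.34, ANAPC4 at 0.63 and CDC27 at 0.54 (adjusted p at most 0.0259). ANAPC15 passed the filter only through the sh-NC libraries, where it was high, so its call is no support for the count of lower genes. Of 15 centriole and centrosome genes tested, 4 (26.7%) were lower and 3 (20%) higher, and 7 and 1 after GC correction, led by CNTROB at -0.56, TUBGCP3 at -0.48, CEP152 at 0.38 and CEP63 at 0.23 (adjusted p at most 0.0198). CEP152 lay close to the filter of 1 FPKM in sh-NC, at 1.12 ± 0.191 FPKM. Of the list genes named, SMC2, CEP152, CEP63 and ANAPC15 were not called after GC correction, nor were SMC4 and LIN9, whose differences then were -0.03 and -0.02.

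**Figure D4:**
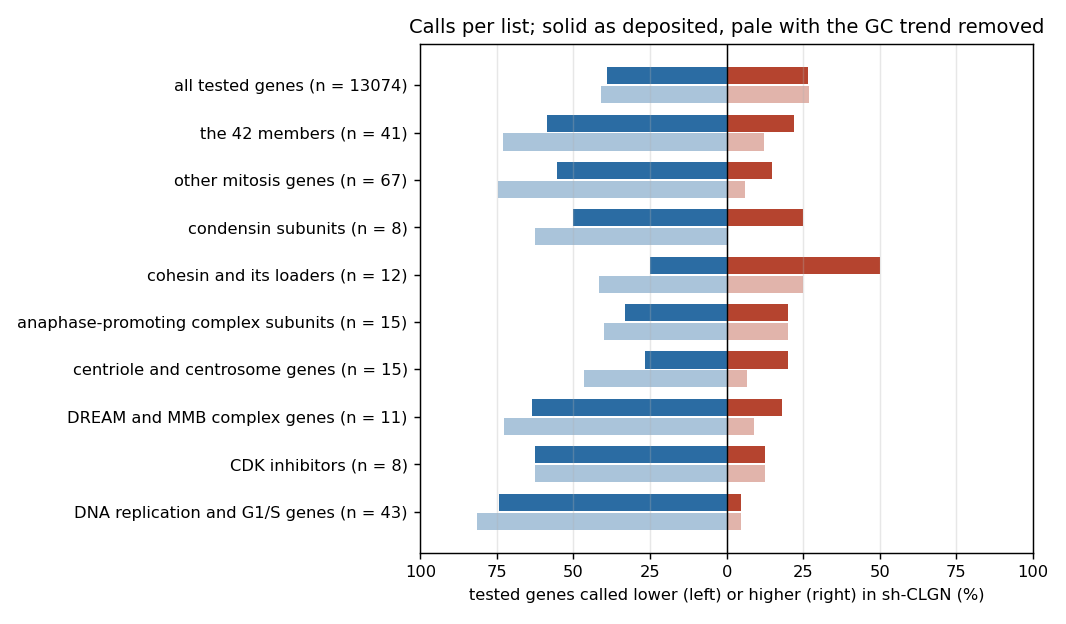
Percent of tested genes called lower (left) and higher (right) in sh-CLGN for all tested genes, the 42 mitosis genes and the 8 lists; solid bars are the deposited values and pale bars those after GC correction. The replication list has the largest share of lower calls of the 8 lists with the deposited values, 74.4%, and cohesin the largest share of higher calls, 50%.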

How the data were processed

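Libraries were made with a NEBNext Ultra kit. The authors deposited FPKM values per gene and library. The submitters' processing notes name HISAT2 2.0.5 and featureCounts on GRCh38; the strand setting was not given in the sources used here. All 58735 gene positions equalled GENCODE 29. FPKM times length fell on whole reads within 0.01 for 100% of values, which gave the read totals. The deposited FPKM rested on library sizes that differed from these totals, by a factor of 0.933 to 0.953 (sh-NC) or 1.07 to 1.08 (sh-CLGN). KD columns were matched to sh-CLGN by number and genotype.

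All 6 libraries entered 1 fit in limma 3.58.1 (R 4.3.3, eBayes with trend) on log2(FPKM + 1), two-sided, and the procedure was tested on simulated data. GC trends were removed per library by lowess (span 0.3). Alternatives were a pseudocount of 0.1, no filter, 3 scalings, GC correction, voom on recovered reads, a test against a 1.2-fold change, a block of replicate number, and each library left out in turn. Replicate numbers did not pair the samples. Per-library values are given for the 8 lowest and 4 highest log2 fold changes, MKI67, the most abundant gene and genes whose call was lost under GC correction, and for BUB3, PRC1 and CDKN1A. From each list the 2 largest called changes each way are named. The genes and lists were chosen with earlier results of these data known. matplotlib 3.10.9, scipy 1.17.1, pandas 2.3.3 and numpy 2.4.6 under Python 3.11.15 were used for summaries, promoters and figures.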

Additional observations from a re-analysis of the deposited data

How the results depend on the processing

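Of the 33 calls among the mitosis genes, 16 of 24 lower and 5 of 9 higher held in all 9 alternatives that kept every library. CENPE is among these 5, and its call is no support, since it passed the filter only through sh-CLGN. The median of the mitosis genes was -0.18 with TPM, -0.11 with read totals and -0.020 with quantile normalization. With GC correction 5 mitosis genes were higher, and the genes of the lists called higher, 29 with the deposited scaling, numbered 15, against 49 with read totals and 45 with quantile normalization. A test against a 1.2-fold change called 4382 genes, 2637 lower and 1745 higher, and 68 list genes, 58 lower and 10 higher, beside 126 list genes without it, and it called 16 mitosis genes lower and 6 higher. It asks for a larger change by construction; the cause of the other shifts was not tested.

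Signs turned for PTTG1 (0.014 with read totals, 0.10 with quantile normalization) and MAD2L1 (0.057, 0.028). With TPM, read totals and quantile normalization they turned for KIF23 (0.056, 0.12, 0.14), NDC80 (0.074, 0.14, 0.17), TTK (0.074, 0.13, 0.048) and BUB3 (0.12, 0.18, 0.21). KIF23, NDC80 and BUB3 were called higher with quantile normalization (adjusted p = 0.0392, 0.0306 and 0.0141) but lower with GC correction. BUB3 was also called higher with read totals (adjusted p = 0.0277). With 1 library left out, TTK ranged from -0.095 to 0.031 and BUB3 from -0.042 to 0.034, their signs turning without sh-NC replicate 3 and that of BUB3 also without sh-CLGN replicate 3. GC correction turned CDK1 (-0.026), NUSAP1 (-0.022), NUF2 (-0.047) and KIF11 (-0.21). Leaving out 1 library gave 23 to 24 lower and 9 to 10 higher mitosis genes, and 7634 to 8760 called genes in all. PTTG1 was the only call lost. With the replicate number as a block, 23 mitosis genes were lower and 9 higher, and 8038 genes were called, PTTG1 again being lost (adjusted p = 0.0786). The deviations of same-numbered libraries from their group means correlated across genes at -0.02, -0.05 and -0.15. CLGN stayed called in every alternative, at -1.61 to -1.12. PRC1 was at 32 to 47 reads per library, too few for a small difference. Intervals and floors of reads cover counting error only.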
